A study of Mus musculus with 36 samples.

Results

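The comparison set untreated mouse embryonic fibroblasts (MEFs) of the line labelled MEF2 ZERT2 against untreated MEFs of the line labelled MEF3, across every probe of the array that was not a control. The arrays were chosen by their titles alone: 2 arrays of MEF2 ZERT2 Tmx- and 2 of MEF3 Tmx-, 4 of the 36 arrays and 2 of the 18 groups of the series. The series title names the study's subject, Zscan4 in the making of induced pluripotent stem (iPS) cells, and this comparison gives the distance between fibroblast preparations that no drug had touched. MEF2 ZERT2 cells carry a Zscan4ERT2 transgene and are called ZERT2 MEFs here. MEF3 cells are described as wild MEFs and have no transgene in their labels. Both are labelled as F1 hybrid MEFs from V6.5, and both were grown as a monolayer in MEF medium on gelatin. The labels do not give the transgene's promoter, the sex or number of the embryos behind each line, or whether the samples of a group were separate cultures. P-values therefore measure only the spread between samples of a group, pooled over all 36 arrays of the series, which may be technical. Each line is represented by 1 preparation. A second set of 4 arrays of the same lines, labelled Tmx+, held 2 arrays of each line. The protocol of the ZERT2 MEFs with that label adds tamoxifen to the medium, and the protocol of the wild MEFs with that label mentions none.

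MEFs are primary connective-tissue cells grown from mid-gestation embryos, and a preparation keeps the genotype, sex and tissue mix of the embryos it came from. ERT2 is a mutated ligand-binding domain of the oestrogen receptor that holds its fusion partner inactive until a tamoxifen compound binds. Zscan4 is a zinc-finger protein of early embryos and, in brief bursts, of embryonic stem (ES) cells. Without tamoxifen the fused protein should be largely inactive. By their labels the untreated lines differ in the transgene, and they may differ in whatever else separates the preparations.

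Each array measured sample RNA in Cy3 against a common reference RNA in Cy5, a pool from mouse cell lines with added ES cell RNA. Levels below are log2 ratios of sample to reference, and line differences are ZERT2 minus wild on that scale. On the 4 arrays, the share of probes whose sample signal stood well above background ran from 54.9% to 59.7%. No spot on them was saturated. The number of arrays limits the precision. Both untreated ZERT2 arrays lay on 1 slide and both untreated wild arrays on another, scanned on another day, so slide, scan day and line cannot be told apart. The files pair no gene name with a probe. The transgene, fibroblast markers and sex-linked genes could therefore not be looked up, and the probes are given by identifier and sequence. A pair of probe sets, taken from other arrays of the series, stood in for cell state: 1300 probes with ES cells 4-fold or more above uninduced secondary MEFs (ES-high) and 2107 with ES cells 4-fold or more below them (MEF-high). The median level of MEF-high probes was 1.22 and 1.21 on the untreated ZERT2 arrays and 1.11 and 1.13 on the untreated wild arrays. On the ES cell arrays it was -1.90 and -1.84. The ES-high probes had medians of -1.65 and -1.59 in ZERT2 and -1.53 and -1.53 in wild MEFs, against 1.06 and 1.07 in ES cells. By these sets both lines sat with the fibroblasts.

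The 60-base probes that carry the largest line differences are printed 5′ to 3′ as deposited. The first pair was high in ZERT2 MEFs and at background in wild MEFs, the next pair was the reverse, and the last was, among probes called for such a change, the one whose line difference changed most on the arrays labelled Tmx+. Positions in the genome are known only for the last of them, given below.
Z00064853-1: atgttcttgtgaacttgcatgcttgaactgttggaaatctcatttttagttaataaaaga
Z00025402-1: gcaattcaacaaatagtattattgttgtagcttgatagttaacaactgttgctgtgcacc
Z00016441-1: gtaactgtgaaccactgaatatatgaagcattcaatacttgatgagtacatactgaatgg
Z00027416-1: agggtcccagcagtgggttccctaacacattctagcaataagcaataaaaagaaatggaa
Z00030893-1: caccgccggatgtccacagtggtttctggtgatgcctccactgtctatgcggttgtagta

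The untreated lines differed at many probes by small amounts and at few probes by large ones. Limma called 3323 of 33094 probes (10.0%) at an adjusted p below 0.05, with ZERT2 MEFs above wild MEFs at 1628 and below them at 1695. The median absolute line difference over all tested probes was 0.08 on the log2 scale, and over the called probes it was 0.31. Only 41 of the called probes were at least 2-fold higher in ZERT2 MEFs and 47 at least 2-fold lower, and 14 and 5 passed 4-fold. For scale, the replicate arrays of untreated ZERT2 MEFs were 2-fold or more apart at 7 probes and those of untreated wild MEFs at 27. Between 82 and 112 probes were 2-fold or more apart in each of the 4 pairings of 1 ZERT2 with 1 wild array. The count of calls rested on the spread pooled over all 36 arrays: with the spread of the 8 primary MEF arrays it was 1724, and with the 4 untreated arrays alone 1557. It was 1967 without ZERT2 replicate 1 and 2190 without wild replicate 2. With arrays centred on their medians in place of loess, 888 probes were higher and 1633 lower, against 1628 and 1695.

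Several probes well above background in ZERT2 MEFs were not so in wild MEFs. Probe Z00064853-1 had levels of 1.29 and 1.39 on the untreated ZERT2 arrays and -5.07 and -5.13 on the wild arrays. Its spots had sample intensities of 4664 and 4622 in ZERT2 MEFs and of 66.6 and 56.4 in wild MEFs, where the probe was not well above background, while the reference intensities of the same spots lay between 3702 and 4913. It was at least 86.8-fold higher in ZERT2 MEFs (log2 difference 6.44, SE 0.083, limma adjusted p = 6.55e-25). A fold against a group at background is such a lower bound: the mean of the bright group over the mean, per array, of the higher of the lowest signal well above background and the dim probe's own signal, taken from the sample channel alone. Where this came out above the fold of the fitted ratio, the fitted fold, as the smaller of both, is printed.

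Probe Z00025402-1 showed the same on and off pattern, with levels of 0.90 and 0.86 in ZERT2 MEFs and -4.33 and -4.40 in wild MEFs. It was at least 38.0-fold higher in ZERT2 MEFs (log2 difference 5.25, SE 0.078, limma adjusted p = 8.43e-24). In both probes the groups were far apart and their replicates close together. In the rest of the series the wild MEFs were the exception: on the 28 arrays of secondary MEFs, iPS and ES cells, Z00064853-1 lay between -0.43 and 1.82 and Z00025402-1 between 0.33 and 1.81, well above background on every one.

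A search over all tested probes, added after the values were seen, found 8 with wild MEFs at least 2-fold below every array of every other kind of cell, ZERT2 MEFs included. Z00064853-1 and Z00025402-1 led them. Z00063386-1 (at least 19.9-fold higher in ZERT2 MEFs), Z00031814-1 (at least 11.5-fold) and Z00070082-1 (at least 8.84-fold) were also detected on all 32 arrays outside wild MEFs. Z00063386-1 and Z00031814-1 were well above background on 0 of 4 wild arrays, those labelled Tmx+ included, and Z00070082-1 on 2 of 4. Z00062509-1 (at least 3.74-fold) and Z00076280-1 (at least 3.09-fold) were not well above background on any wild array either. At Z00076280-1 the ZERT2 MEFs were low as well, between -2.03 and -1.86, against 0.34 or more on the arrays of other cells. Z00036741-1 (log2 difference 2.28) was flagged well above background on all 4 wild arrays. Its untreated levels were 0.33 and 0.42 in wild MEFs against 2.86 and 2.44 in ZERT2 MEFs and at least 3.33 elsewhere. Its mean log2 sample signal in untreated wild MEFs was 6.74 all the same, near the 6.70 used as the limit for Z00064853-1 there.

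The reverse pattern, wild MEFs at least 2-fold above every array of every other kind of cell, was found at 2 probes. Z00016441-1 had levels of 1.21 and 1.37 on the untreated wild arrays and -5.16 and -5.22 on the ZERT2 arrays. Sample intensities were 4185 and 5008 in wild MEFs against 70.5 and 67.7 in ZERT2 MEFs, where it was not well above background. It was at least 80.1-fold higher in wild MEFs (log2 difference -6.48, SE 0.099, limma adjusted p = 6.27e-23). On the 28 arrays of other cells it lay between -5.47 and -4.26, with 1 value missing, and was well above background on 24 of them. The 2 groups of wild MEFs, untreated and labelled Tmx+, were thus the only ones of the 18 above the level of the reference. More probes were detected on those 28 arrays, 62.9% to 77.1%, than on the 4 untreated arrays, 54.9% to 59.7%. The ZERT2 levels lay within the range of the other cells, so detection alone does not set ZERT2 MEFs apart from them. The other probe, Z00020628-1, lay at least 2-fold higher in wild MEFs than on every other array, at 3.28 and 3.43 against 2.12 and 2.08 in ZERT2 MEFs. It was well above background on all 4 ZERT2 arrays and 25 of the 28 others. ZERT2 MEFs in turn lay above those 28, where the highest value was 1.55.

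Z00027416-1 was the second largest difference in favour of wild MEFs, and here ES cells were low too. Its levels were 0.36 and 0.46 in wild and -3.63 and -3.89 in ZERT2 MEFs, at least 17.0-fold higher in wild MEFs (log2 difference -4.17, SE 0.064, limma adjusted p = 8.72e-24). It was not well above background on the untreated ZERT2 arrays. ES cells had values of -4.89 and -4.80. The uninduced secondary MEFs of day 1, at -0.94 and -0.97, and the iPS cells, at -0.52 and -0.58, lay between ES cells and wild MEFs.

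ZERT2 MEFs stood at least 2-fold apart from all other arrays at 3 probes, again by a search added after the values were seen. Z00063961-1 was higher in ZERT2 MEFs than on every other array, with untreated levels of -0.54 and -0.54 against -1.78 and -1.65 in wild MEFs. Z00063710-1 and Z00065155-1 were lower than on every other array. Z00063710-1 had untreated levels of -2.91 and -3.05 in ZERT2 and -1.43 and -1.27 in wild MEFs. Z00065155-1 had -1.79 and -1.82 against -0.51 and -0.65. At both probes the wild MEFs also lay below all arrays of other cells, whose lowest values were -1.18 for Z00063710-1 and -0.38 for Z00065155-1. Z00030893-1, one of the probes printed above, was also higher on all 4 ZERT2 arrays than on every other, by less than 2-fold.

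**Figure D1:**
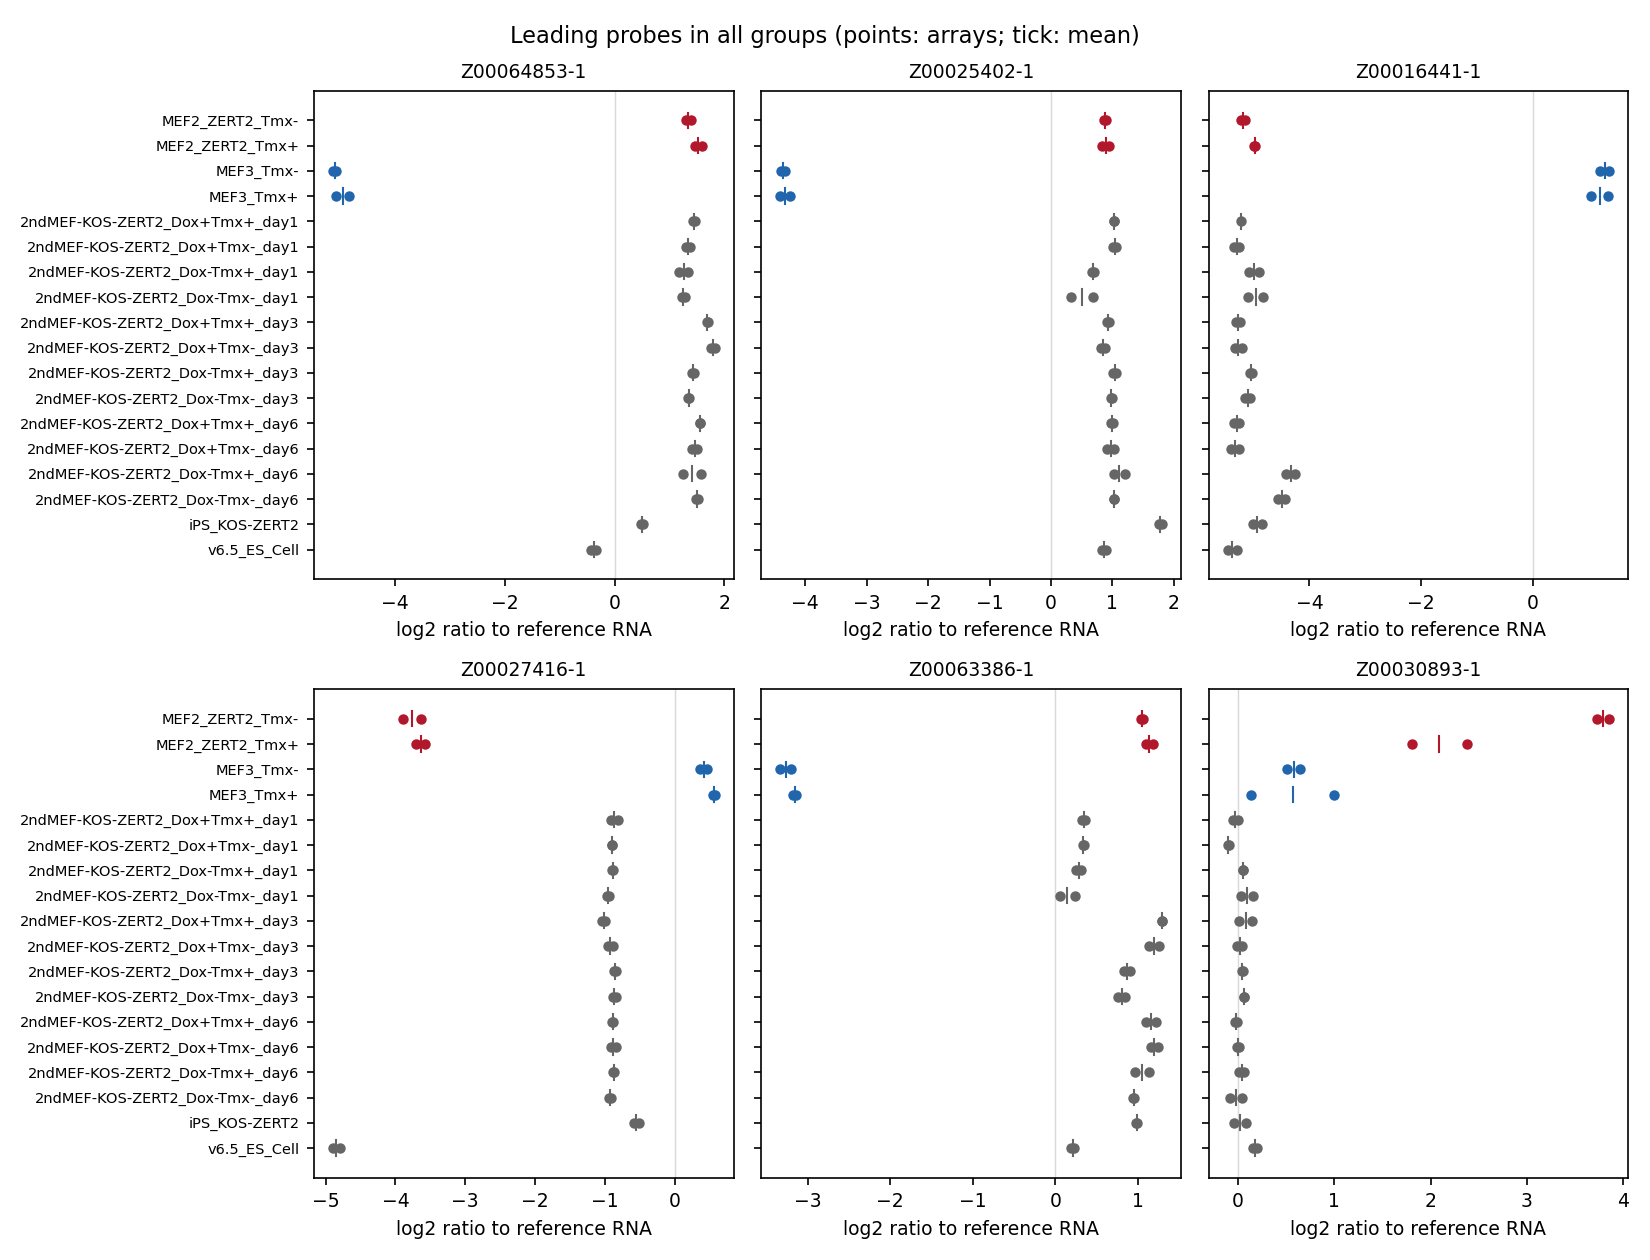
Levels of 6 probes (log2 ratio of sample to reference RNA, horizontal axis) in each of the 18 groups, with 1 point per array and a tick at the group mean; ZERT2 MEFs are red, wild MEFs blue and all other groups grey. Z00064853-1, Z00025402-1 and Z00063386-1 are low in wild MEFs only, Z00016441-1 is high in wild MEFs only, Z00027416-1 is low in ZERT2 MEFs and ES cells, and Z00030893-1 is highest in untreated ZERT2 MEFs.

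Detection gave a count of such on and off probes that uses no ratio. Over both sets of arrays, 17 probes were well above background on all 4 ZERT2 arrays and on 0 of 4 wild arrays, and 43 were so on all 4 wild arrays and on 0 of 4 ZERT2 arrays. Of the 17, 9 were also at least 2-fold different in both sets, as were 7 of the 43. Limma called 16 of the 17 higher in ZERT2 MEFs in both sets, and 21 of the 43 lower in both. Of all 33094 tested probes, 1177 were called higher and 1196 lower in both sets, and 0.221% were 2-fold different in both. The probes were picked by detection on the same 8 arrays, so calls in the matching direction are no separate support. Detection also differed between arrays: on those labelled Tmx+, the share of probes detected was 56.8% and 55.1% in ZERT2 MEFs and 60.3% and 64.8% in wild MEFs. The part of this in the counts was not tested. By comparison 21995 probes were detected on all 8 arrays.

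The large differences recurred on the other set of arrays of the same lines. On the arrays labelled Tmx+, 6334 of 33094 probes (19.1%) were called, 3026 higher and 3308 lower in ZERT2 MEFs. Of the 3323 probes called between the untreated lines, 3115 (93.7%) had the same sign on the arrays labelled Tmx+, and 2373 were called there with that sign, 71.4% of the untreated calls and 37.5% of those on the arrays labelled Tmx+. Among the 88 untreated calls of at least 2-fold, 87 had the same sign and 73 were again at least 2-fold, 34 of them higher in ZERT2 MEFs and 39 higher in wild MEFs. The 34 had a median log2 difference of 1.66 untreated and 1.76 on the arrays labelled Tmx+. The 39 had medians of -1.31 and -1.32. The 2 sets share no array and no slide, but no scan day held both lines, so line and scan day cannot be told apart in either. Over both sets together, 7830 probes (23.7%) were called, 3641 higher and 4189 lower in ZERT2 MEFs, and 97 of them were at least 2-fold.

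**Figure D2:**
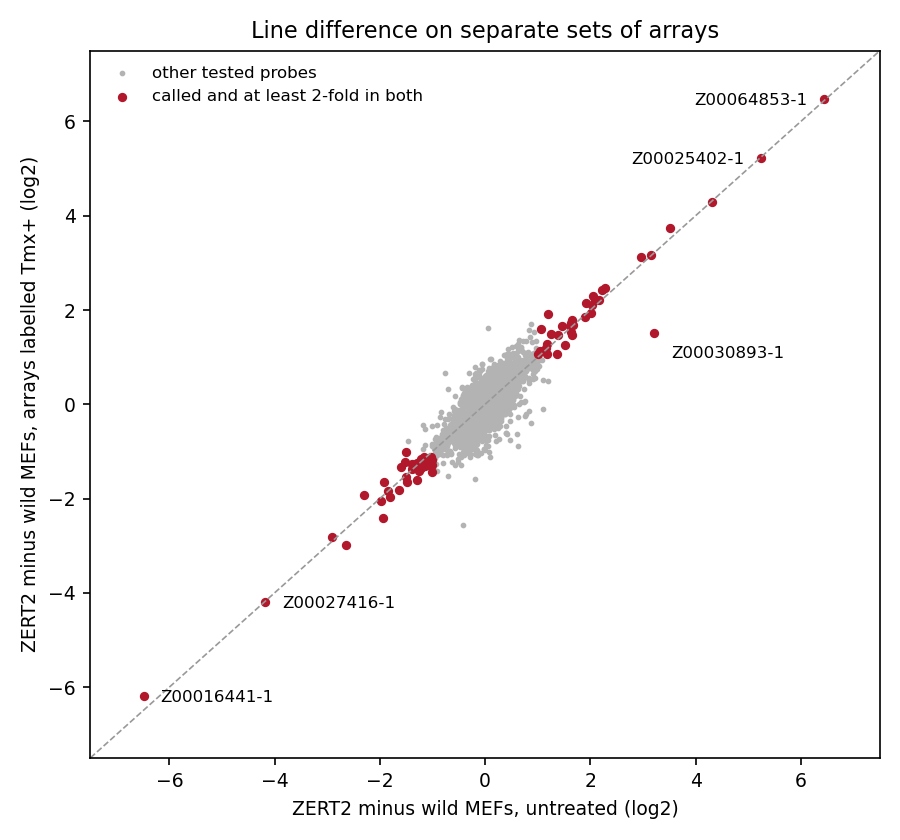
Line difference (ZERT2 minus wild MEFs, log2) on the arrays labelled Tmx+ against that on the untreated arrays, 1 point per tested probe; the dashed line marks equal values and the 73 probes called and at least 2-fold in both are red. The 4 leading probes lie on the line, and Z00030893-1 lies below it, at 3.22 untreated and 1.52 on the other arrays.

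The line difference itself differed between the sets at 251 probes (127 with a higher and 124 with a lower difference on the arrays labelled Tmx+), of which 3 differed by at least 2-fold. With the spread of the 8 primary MEF arrays alone, 13 were called. Of the 88 untreated calls of at least 2-fold, 4 (4.55%) were among the 251, which made up 0.758% of all tested probes. The untreated arrays that selected the 88 also enter the difference between sets, which favours such calls. The larger share is therefore no separate result. Of the 4, the one with the largest difference between sets was Z00030893-1. Its untreated levels were 3.73 and 3.85 in ZERT2 MEFs and 0.51 and 0.65 in wild MEFs (log2 difference 3.22, SE 0.163, limma adjusted p = 7.22e-13). On the arrays labelled Tmx+ its levels were 1.81 and 2.37 in ZERT2 MEFs and 0.14 and 1.00 in wild MEFs. The line difference was thus smaller there by 1.70 (interaction log2 value -1.70, SE 0.231, limma adjusted p = 2.96e-04), although 0.227 was the adjusted p with the spread of the 8 primary MEF arrays alone. The call was also lost with Feature Extraction's own ratio (-1.22, limma adjusted p = 0.466) and with the series matrix, where the value was 0.10 (limma adjusted p = 0.948). Within the ZERT2 line the 2 groups did not overlap: sample intensities were 657 and 580 untreated and 190 and 239 with tamoxifen. These groups lay on separate slides scanned on separate days, so tamoxifen, slide and scan day cannot be told apart here. On every other array of the series the probe lay between -0.11 and 0.20, and its reference intensities were near background.

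Z00030893-1 is also the one probe among the 73 whose place in the genome could be given. Its sequence matched, base for base, a RefSeq promoter window of build GRCm38.p6 at chr17:35064335-35064394, in the orientation opposite to the window's gene, G6bos, a long noncoding RNA, and 102 to 43 bases before its annotated start. The same interval lies inside the annotated span of the protein-coding gene Mpig6b, which encodes an inhibitory receptor of platelets and megakaryocytes. Whether the interval is exonic, and whether the sequence occurs elsewhere in the genome, was not analysed here. Only 219 of the 33095 probes kept (0.662%) matched such a window, which runs from 250 bases before to 50 bases after a gene's start, so most probes could not be placed in this way. Among the 219, 5 (2.28%) were called with the same sign on both sets of arrays, against 7.17% of all tested probes. One of them, Z00044170-1, at chr17:56717818-56717877 on GRCm38.p6, lies before the start of Vmac, in the opposite orientation, and inside the annotated span of Ndufa11, which encodes a subunit of respiratory complex I. Its line difference was 0.86 untreated and 1.01 on the arrays labelled Tmx+.

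The reference channel gave a measure of how far arrays of these slides differ without any difference in RNA, since the same reference was hybridised to all. Taken alone and quantile normalized, the reference channel of the untreated ZERT2 arrays differed from that of the untreated wild arrays at 1664 probes in the same limma fit, 883 higher and 781 lower, and 56 of these were at least 2-fold. The sample channel treated in the same way differed at 4211 probes, 141 of them at least 2-fold. A disturbance of a spot that acts on both channels cancels in the ratio, so the reference count is not a count of false calls in the ratio. At the 99th percentile the absolute line difference was 0.63 in the ratio and 0.62 in the reference channel alone. At the 99.9th percentile the values were 1.59 and 1.16, and the largest were 6.48 and 2.19. The criterion of 2-fold in both sets of arrays was met by 73 probes in the ratio, 89 in the sample channel and 6 in the reference channel. At 70 of the 73 the reference channel differed by less than 0.5 between the untreated lines, and at 70 the sample channel alone differed by at least 2-fold in the same direction. Most tested probes met the first condition, since the 90th percentile of the absolute reference difference over all of them was 0.21. The second count largely follows from the first, since the ratio is sample over reference. For Z00064853-1 the sample channel differed by 6.88 and the reference channel by 0.04, and for Z00016441-1 the values were -6.70 and 0.13. The part of slide and scan day in the small differences was not tested.

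Set beside the treatments of the series, the untreated lines differed by 2-fold at more probes than either primary line did with the tamoxifen label, and at fewer than secondary MEFs did with doxycycline, which switches on reprogramming factors there. ZERT2 MEFs with tamoxifen against without differed at 1010 probes, 3 of them by at least 2-fold, and wild MEFs labelled Tmx+ against Tmx- at 101, 0 of them by 2-fold. Both counts moved with single arrays: leaving out each array in turn, the first ran from 396 (without ZERT2 Tmx+ replicate 2) to 1704 (without ZERT2 Tmx+ replicate 1), and the second from 7 (without untreated wild replicate 1) to 249 (without untreated wild replicate 2). With the 8 primary arrays alone limma called 198 and 0, and 3419 had an unadjusted p under 0.05 in the latter. These comparisons share the untreated arrays with the line difference. Secondary MEFs after 1 day of doxycycline differed from uninduced ones at 15338 probes, 2189 of them by at least 2-fold, and iPS from ES cells at 2690, 78 of them by at least 2-fold. The 99th percentiles of the absolute differences were 0.63 between the untreated lines, 0.42 and 0.35 for the tamoxifen label in ZERT2 and wild MEFs, 0.59 between iPS and ES cells, and 2.38 for doxycycline. The largest single differences were 6.48 between the untreated lines, 1.70 and 1.19 for the tamoxifen label, 4.29 between iPS and ES cells and 6.74 for doxycycline. At the median the untreated lines differed by 0.08, and ZERT2 and wild MEFs by 0.07 with the tamoxifen label. The comparisons were not laid out alike. iPS and ES cells shared a slide, and the wild groups and the doxycycline groups each shared a scan day. The untreated lines shared neither a slide nor a scan day, and the ZERT2 groups with and without tamoxifen shared neither as well. In that comparison tamoxifen, slide and scan day cannot be told apart. In the reference channel alone the 99th percentiles were 0.62 between the untreated lines and 0.57 and 0.46 for the tamoxifen label. Between iPS and ES cells the value was 0.26, and for doxycycline 0.38.

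The 8 primary MEF arrays form a 2 by 2 layout, and for each probe the differences between its 4 groups were split into the mean line difference, the mean difference by label, and the interaction (0.5 times the change in the line difference). A component of at least 0.5 was found at 786 probes, and the line was the largest of the 3 at 758 of them, the label at 14 and their interaction at 14. A component of at least 1 was found at 98 probes, and at all 98 the line was the largest. The layout was not balanced for scan day: the wild groups shared a day, and each ZERT2 group had another day of its own. All 4 groups lay on separate slides. Line cannot be told apart from scan day in this split, and the components are not alike in what they hold of it. The 758 probes became 2920 with Feature Extraction's ratio and 1569 with the series matrix.

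**Figure D3:**
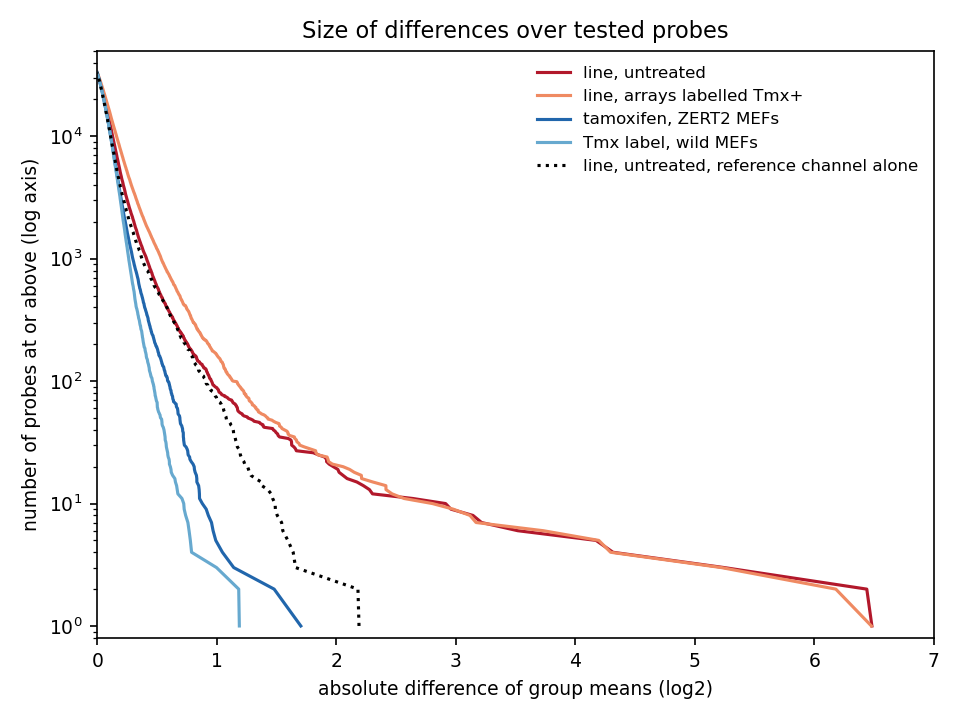
Number of probes (log axis) with an absolute difference of group means at or above the log2 value on the horizontal axis, for both line differences, the tamoxifen label in each line, and the untreated line difference in the reference channel alone. The largest differences reach 6.48 between the untreated lines, 1.70 for tamoxifen in ZERT2 MEFs, 1.19 for the label in wild MEFs and 2.19 in the reference channel.

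The uninduced secondary MEFs, second-generation MEFs of another hybrid background that are labelled KOS-ZERT2, did not side with 1 line. At the 34 probes higher in ZERT2 MEFs, the mean of their 6 arrays lay nearer to ZERT2 MEFs at 23 and nearer to wild MEFs at 11. At the 39 probes higher in wild MEFs it lay nearer to ZERT2 MEFs at 20 and nearer to wild MEFs at 19. Secondary MEFs came within 0.25 line differences of ZERT2 MEFs at 21 of the 73 probes and of wild MEFs at 9. Z00064853-1 averaged 1.34 in ZERT2 MEFs and had 1.28 and 1.23 in uninduced secondary MEFs of day 1. Z00027416-1 averaged -0.92 in uninduced secondary MEFs, against -3.70 in ZERT2 and 0.49 in wild MEFs. ES cells lay nearer to ZERT2 MEFs at 43 of the 73. Secondary MEFs and ES cells were measured on other slides than either line.

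**Figure D4:**
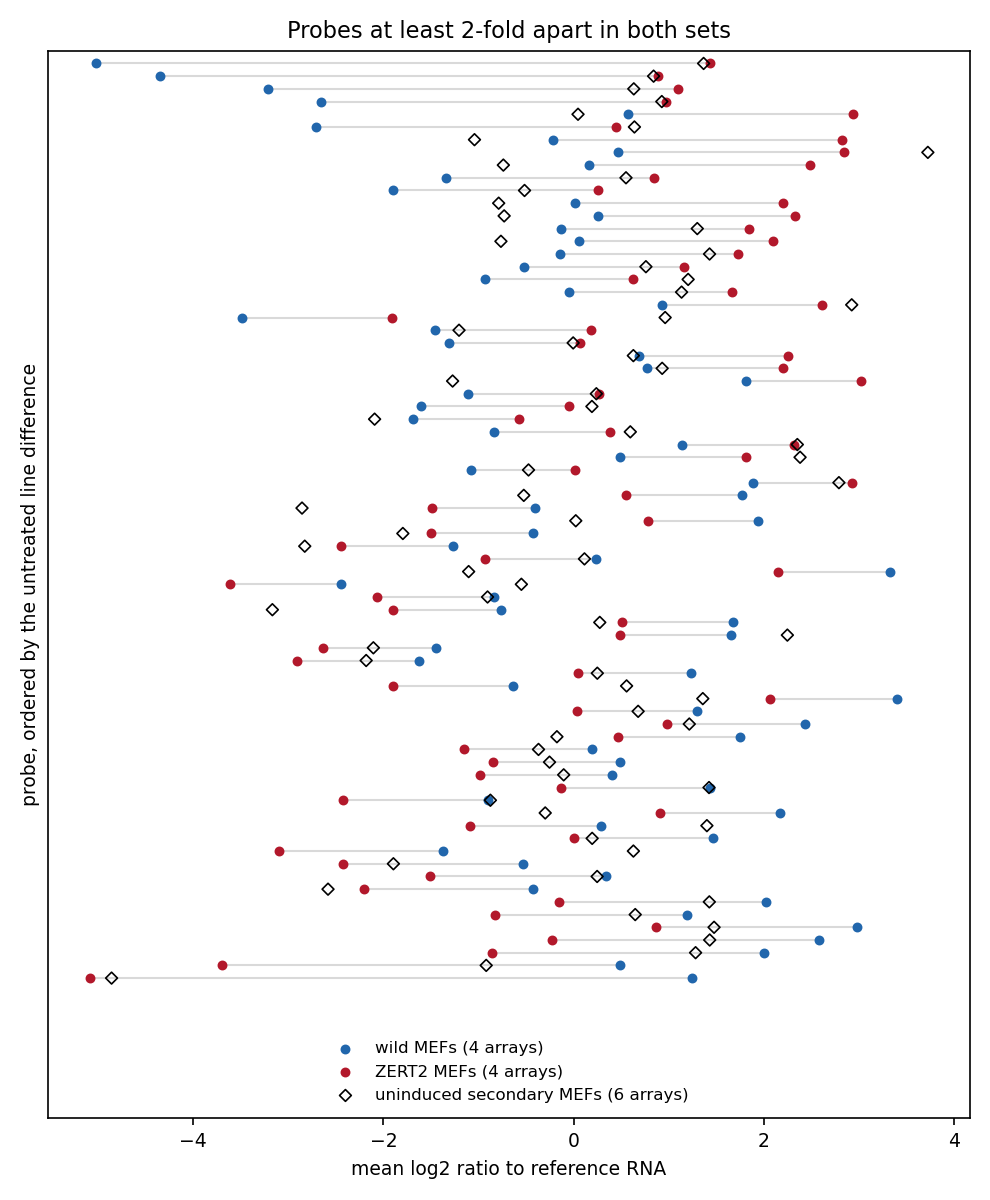
Mean log2 ratio to the reference RNA (horizontal axis) in wild MEFs (blue), ZERT2 MEFs (red) and uninduced secondary MEFs (open diamonds) at the 73 probes called and at least 2-fold in both sets, 1 row per probe in order of the untreated line difference. The diamonds lie nearer to the red points at 43 probes and nearer to the blue points at 30.

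Probes that mark the fibroblast and the ES state were counted separately, and their line differences were small. Of the 2107 MEF-high probes 426 were higher and 126 lower in ZERT2 MEFs (26.2% called), and of the 1300 ES-high probes 72 were higher and 156 lower (17.5%). The remaining 29687 probes had 8.57% called, 1130 higher and 1413 lower. The median line difference was 0.07 for MEF-high, -0.05 for ES-high and -0.003 for all tested probes, and on the arrays labelled Tmx+ the medians were 0.07, -0.06 and -0.009. The direction of the MEF-high set depended on the scaling: with arrays centred on their medians its median was -0.04, the same as that of all probes, and 162 members were higher and 140 lower. The ES-high median stayed below 0 under that scaling, at -0.10, but the balance of its calls did not hold with Feature Extraction's ratio, where 156 were higher and 149 lower (median -0.04). Bright probes were also called more often than dim ones: the share called was 2.73% in the dimmest of 4 equal groups of probes by sample brightness, 8.77% in the second, 15.4% in the third and 13.3% in the brightest. The 73 probes of 2-fold in both sets held 13 MEF-high and 6 ES-high members, 0.617% and 0.462% of those sets, against 0.221% of all tested probes. In bulk RNA, fewer cells of a type and less RNA per cell cannot be told apart.

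The base composition of the probes was described for the called sets, with no test. The median GC content was 45.0% over all tested probes, 45.0% over probes called higher and 43.3% over probes called lower in ZERT2 MEFs. It was 40.8% over the 34 and 41.7% over the 39 probes of at least 2-fold in both sets. The leading probes were poorer in G and C, at 30.0% for Z00064853-1, 35.0% for Z00025402-1 and Z00016441-1 and 41.7% for Z00027416-1, and Z00030893-1 was at 55.0%.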

How the data were processed

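The series holds 36 2-colour arrays, 2 in each of 18 groups taken from the labels. Per the file headers, images were read with Agilent Feature Extraction 9.5.1.1. The deposited values used were the mean spot intensity and the local background intensity (median), not normalized. The deposited log10 ratio of Feature Extraction (sign turned) and the series matrix were alternatives. The matrix, whose normalization is not given in the sources used here, was read as log10 sample brightness (25030 probes, column medians 2.37 to 2.46, correlation 0.952 to 0.981 with log10 of the mean intensity).

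Local backgrounds marked as outliers were replaced by the array's median, since they upset the background correction of 2 arrays (wild Tmx+ replicate 1 and uninduced secondary MEFs of day 6 replicate 1). Normexp with an offset of 50 and loess within arrays followed, with control and non-uniform spots at weight 0 and the latter set missing (302 values of probes over all arrays). Spots of 1 probe were averaged. Of 42006 probes of 60 bases, 33095 were well above background on both arrays of at least 1 group. Limma 3.58.1 (R 4.3.3) fitted 1 mean per group over all arrays (18 residual and 5.05 prior degrees of freedom), with eBayes, two-sided, and Benjamini-Hochberg adjustment within each comparison. A single probe lacked a group mean, which left 33094 tested.

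Named probes were the 2 rising and 2 falling most among those called, with no overlap of groups, well above background on both arrays of the higher group and of the same sign on the arrays labelled Tmx+; ranking by the smaller of both changes gave the same 4. Other probes were named for patterns after their values were seen. The members and lists were chosen with earlier results of these data known. Gene lists could not be applied, since no gene name is paired with the probes. Promoter windows and gene spans are from RefSeq, GRCm38.p6. The fit was checked on simulated data with independent noise per array and no slide or scan-day effect, so the check does not cover those. Replicate numbers were not used to pair samples in the main fit. Deviations of same-numbered arrays correlated at -0.11 between the untreated lines and -0.16 between the lines labelled Tmx+. Between the untreated and Tmx+ arrays they correlated at 0.15 in ZERT2 and 0.21 in wild MEFs. With 2 arrays per group, these values cannot settle whether the samples were paired.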

Additional observations from a re-analysis of the deposited data

Results flagged for a closer look

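The line difference on the arrays labelled Tmx+ differed from the untreated one at 251 probes by limma's interaction test. Z00030893-1 had the largest such difference among the called probes, -1.70 on the log2 scale, and its ZERT2 levels were 3.73 and 3.85 untreated against 1.81 and 2.37 with tamoxifen. Its call was lost with the spread of the 8 primary arrays, Feature Extraction's ratio (-1.22) and the series matrix (0.10), with limma adjusted p-values of 0.227, 0.466 and 0.948. The reference channel, outside the main measurement as a signal of its own, differed at 1664 probes between the untreated arrays of the lines, although the same RNA was applied to all.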

How the results depend on the processing

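The 4 leading probes kept their direction and an adjusted p under 0.05 in limma in each alternative that measured them (15 or 16 each, with log2 differences of 6.17 to 9.95 for Z00064853-1, 5.03 to 8.97 for Z00025402-1, -10.11 to -6.39 for Z00016441-1 and -7.93 to -4.05 for Z00027416-1). Counts of calls moved more. For the untreated line difference (3323) they were 1720 with plain normexp, 1724 with the 8 primary arrays, 1557 with its own 4 arrays, and 1967 to 2567 with each array left out in turn, lowest without ZERT2 replicate 1. With 1 array left in a group, that array is assumed to vary like the other groups. For the arrays labelled Tmx+ (6334) the counts were 3700 with median centring, 4117 with 8 and 2959 with 4 arrays. For the difference between the sets (251) they were 108 with plain normexp, 693 without background subtraction, 1132 with Feature Extraction's ratio, 38 with median centring, 1455 with the series matrix, 13 with 8 arrays, 804 with the sample channel alone, and 92 to 351 with each array left out. For tamoxifen in ZERT2 MEFs (1010) the same settings gave 282, 3392, 1553, 481, 1893, 198 and 1649, with 70 from its own 4 arrays and 396 to 1704 with each array left out. For the label in wild MEFs (101) the counts were 266 with plain normexp, 843 with Feature Extraction's ratio, 6 with median centring, 1043 with the series matrix, 302 with the sample channel, 7 to 249 with each array left out, 3 with its own 4 arrays and 0 with limma on the 8 arrays, where 3419 had an unadjusted p under 0.05. For iPS against ES cells (2690) they were 1309 with plain normexp, 1435 with median centring and 1376 to 1895 with each array left out. The 73 probes of 2-fold in both sets became 224 with Feature Extraction's ratio and 163 with the series matrix, and 60 to 89 in the other alternatives. For Z00030893-1 the difference between the sets was 0.10 with the series matrix, in which wild MEFs also had lower values on the arrays labelled Tmx+. With slide as a random block over the 8 arrays, line and label as terms, 8182 probes were called for the mean line difference against 7830. The correlation within slides in that fit was -0.25. No slide among these held more than 1 group, which means that the fit cannot separate slide from line. The count of 8182 is therefore no test of whether the line calls hold once slide is allowed for. The cause of the shifts between settings was not tested.

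With the replicate block over all arrays, 3299 probes were called between the untreated lines, and no other count moved by over 1.5 times. On the 4 untreated arrays alone the replicate block gave 1707 calls and the crossed pairing, added after the data were seen with the sample channel and the 2-fold count, 1820.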
